A study of Homo sapiens with 6 samples.

Results

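Retinoid handling is described here through 9 genes measured in A549 cells, an established line from a human lung adenocarcinoma: RBP4, TTR, STRA6, RDH10, DHRS3, CRABP2, RARA, RARB and RARG. They were taken by name from the platform's probe-to-gene table. Each probe set assigned to exactly 1 of these symbols was used, which gave 32 of the 49293 probe sets tested, or 9 of 18265 genes. All cells carried a short hairpin RNA brought in by lentivirus, and 3 arrays came from cells labelled shControl and 3 from cells labelled shTIGD1. Each group had 1 hairpin sequence, so the hairpin's own sequence and the targeting of TIGD1, a gene derived from a transposase, cannot be told apart. The printed sequences below name the hairpins as the labels give them.
shTIGD1: ctgctaacacaacatccat
shNC, the control: ttctccgaacgtgtcacgt

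Vitamin A travels in blood as retinol bound to RBP4, which circulates in complex with transthyretin, the product of TTR. The membrane protein STRA6 moves retinol from RBP4 into cells, RDH10 oxidises retinol to retinaldehyde, and DHRS3 reduces retinaldehyde back to retinol. Retinaldehyde is oxidised further to retinoic acid, which CRABP2 carries to the nuclear receptors encoded by RARA, RARB and RARG. These receptors bind DNA with a retinoid X receptor and switch target genes, among them RARB itself and CYP26A1, whose enzyme degrades retinoic acid.

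Of these 9 genes, RBP4, STRA6 and RDH10 rose in the arrays labelled shTIGD1, by 2.46-fold, 1.56-fold and 1.29-fold (3 arrays per group). They are the carrier of retinol, its entry protein and the enzyme of its oxidation. On their brightest probe sets the receptors and the other handling genes did not pass the test: RARA, RARB, RARG, DHRS3, CRABP2 and TTR had log2 differences between -0.12 and 0.12. Among the dimmer probe sets, 1 of 2 for RARB rose, and 3 of 10 for RARA fell as deposited. Levelling the arrays on spiked controls adds a constant to every log2 change. On the 2 levellings none of the 10 passed as lower, and of all 18265 genes only 361 and 119 did. Genes were compared with limma, two-sided, on the brightest probe set, that of the highest mean across the 6 arrays, and p-values were adjusted by Benjamini-Hochberg over all genes with a threshold of 0.05. In this comparison 9.79% of all genes were called higher, 14.0% lower and 23.8% either way, against 3, 0 and 3 of the 9 genes. Without adjustment, RARA and DHRS3 also had p under 0.05 as lower, so 2 of 9, where 4096 of 18265 genes did. The groups did not overlap for 6 of the 9 genes and for 42.3% of all genes.

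The transcript that the hairpin was aimed at did not pass. TIGD1 read 6.96, 6.93 and 6.85 under shControl and 6.88, 6.84 and 6.86 under shTIGD1, and the ranges overlapped (log2 difference -0.06, SE 0.04, limma adjusted p = 0.389). Every direction below is therefore that of the labels. The labels do not say that replicates came from separate cultures, so the p-values cover only sample-to-sample spread here, possibly technical. Array medians lay between 6.27 and 6.28. The epithelial keratins KRT8 and KRT18 read 13.52 and 14.19 in shControl, as log2 signals, while of the lung markers SFTPA1 and SFTPD had means under 5, a level treated here as near background, and NKX2-1, SFTPB, SFTPC and NAPSA read 5.85, 5.59, 6.22 and 6.91 in shControl. Of 18 markers of immune cells, endothelium and fibroblasts, 9 were under 5 in both groups, and the median was 4.90. The brightest of them, CD14, read 8.21 in shControl and in shTIGD1. Of the 18, 0 rose and COL3A1, a collagen gene, fell by 0.56 on the log2 scale, with 2 lower at an unadjusted p under 0.05 in limma's test. Levelling the arrays on the hybridization controls adds 0.21 to every log2 change and levelling on the poly-A controls adds 0.33, which moves the median of all genes from -0.04 to 0.17 and 0.30. On the first, 5 of the 9 genes passed as higher (RBP4, STRA6, RDH10, RARB and CRABP2), and on the second all 9 did, where 8738 and 13965 of 18265 genes passed as higher. Both raise the changes of RBP4, STRA6 and RDH10 and leave their distance from the median of all genes as it is, namely 1.33, 0.68 and 0.40.

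RBP4, the retinol carrier of plasma, had the largest difference of the 9 genes. Its only probe set read 8.41, 8.31 and 8.22 under shControl and 9.61, 9.53 and 9.69 under shTIGD1. All shTIGD1 values lay above all shControl values. The group means, 8.31 ± 0.09 and 9.61 ± 0.08 (SD, n = 3 each), gave a log2 change of 1.30 with an SE of 0.06 and a 95% interval from 1.15 to 1.45 (limma adjusted p = 0.000232). This was the 5th largest rise among 18265 genes. Leaving out any 1 array gave log2 changes between 1.25 and 1.35. With 1 probe set, no other measurement of this transcript was at hand on the array.

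TTR, whose product accompanies RBP4 in plasma, did not pass the test. Its only probe set read 5.28, 5.09 and 5.38 under shControl and 5.19, 5.57 and 5.36 under shTIGD1. The groups overlapped, and 33.5% of all genes had a lower signal. The log2 difference was 0.12 with a 95% interval from -0.15 to 0.40 (limma adjusted p = 0.492), so a small change in either direction was not detectable with these arrays. RBP4 and TTR are both made in quantity by the liver. Of 8 hepatocyte markers, 0 passed limma's test, where 23.8% of all genes did. Without adjustment it was also 0, where 2638 of 18265 genes had p under 0.05 as higher and 4096 as lower. The markers were dim, with a median signal of 4.88, and 4 were under 5 in both groups. Among these 4 was ALB, which encodes albumin (4.65 and 4.75). The brightest of the 8, ASGR1, read 6.44 in shControl and 6.37 in shTIGD1. The summed linear signal of the 8 ran from 270.2 to 283 under shControl and from 267 to 278 under shTIGD1, so the ranges overlapped.

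**Figure D1:**
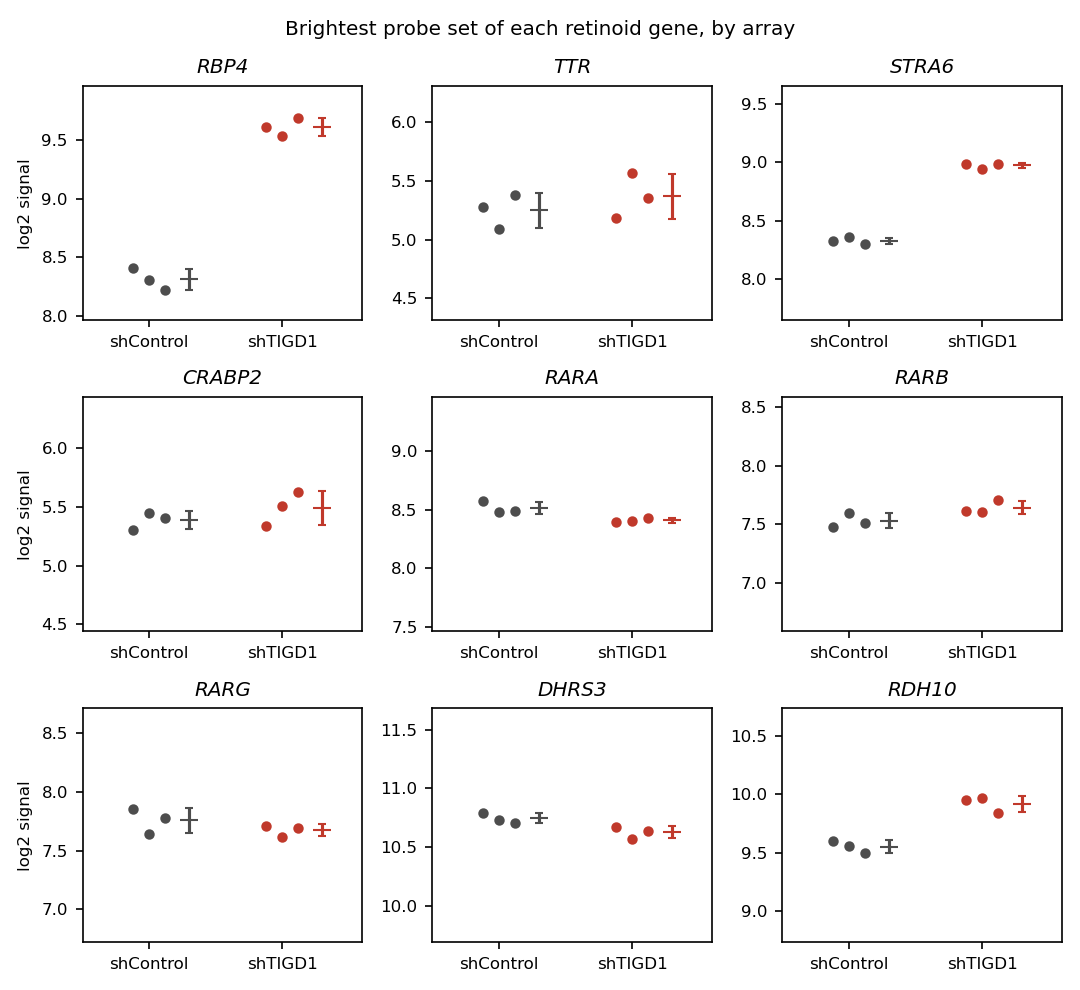
Log2 signal of the brightest probe set of each of the 9 genes on every array (points) with the group mean and SD beside them; each panel spans 2 log2 units around its own centre. RBP4, STRA6 and RDH10 show separate groups, with RBP4 near 8.31 in shControl and 9.61 in shTIGD1. RARA, RARB and DHRS3 also show separate groups, with smaller differences, while the TTR, CRABP2 and RARG groups overlap.

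The promoter of RBP4 is shown because that gene changed most. RefSeq's promoter table for GRCh38.p14 holds windows from 250 bases before to 50 after a gene's start for 7 of the 9 genes, 20 windows in all, and 3 of them belong to RBP4. The line below gives the 250 bases before 1 of these starts on the minus strand (chr10:93601236-93601485). Capitals mark TATAAA, 31 to 26 bases before the start. TATAAA, read on both strands, occurs in 11.5% of the table's 35116 windows and in 4 of these 20, of RBP4 and STRA6.
RBP4: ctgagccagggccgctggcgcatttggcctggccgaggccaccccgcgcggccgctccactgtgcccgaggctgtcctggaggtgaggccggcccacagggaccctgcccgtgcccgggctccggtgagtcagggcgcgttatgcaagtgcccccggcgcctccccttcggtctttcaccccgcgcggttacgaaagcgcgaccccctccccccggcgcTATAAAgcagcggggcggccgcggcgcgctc

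STRA6, the cell-surface receptor that takes retinol from RBP4, rose on 3 of its 4 probe sets. The brightest read 8.32, 8.36 and 8.30 under shControl and 8.99, 8.94 and 8.99 under shTIGD1. The groups were far apart relative to their spread, with means of 8.33 ± 0.03 and 8.97 ± 0.02 (SD, n = 3 each), a log2 change of 0.64 with an SE of 0.03 and a 95% interval from 0.56 to 0.73 (limma adjusted p = 0.000281). The next 2 probe sets in brightness changed by 0.59 and 0.60 on the log2 scale (limma over all probe sets, adjusted p = 0.000618 and 0.000311), also with separate groups. The dimmest read 5.25 ± 0.10 and 5.12 ± 0.11 (SD, n = 3 each) and did not pass (log2 difference -0.13, 95% interval from -0.31 to 0.04, limma adjusted p = 0.259). The 3 bright probe sets of STRA6 thus gave like values, but 2 of them are annotated to the same transcript record. The one that differed had the lowest signal and is annotated to a record of its own. The cause of the difference was not tested. Averaging all 4 lowered the gene's log2 change to 0.43.

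RDH10, which catalyses the oxidation of retinol to retinaldehyde, rose on 2 of its 3 probe sets. The brightest read 9.60, 9.56 and 9.50 under shControl and 9.95, 9.97 and 9.84 under shTIGD1 (log2 change 0.37, SE 0.05, 95% interval from 0.25 to 0.49, limma adjusted p = 0.00413). The third in brightness went from 7.86, 7.84 and 7.86 to 8.36, 8.36 and 8.33, a log2 change of 0.50 (SE 0.04, limma adjusted p = 0.000556). The second read 8.78, 8.87 and 8.81 against 8.87, 8.95 and 8.89. Its groups also did not overlap, but the log2 difference was 0.08 with a 95% interval from -0.02 to 0.19 (limma adjusted p = 0.219). That interval ended below those of the other 2 in the fit over all probe sets, which start at 0.24 and 0.41; the difference was not tested. With the second brightest probe set in place of the brightest, the call for RDH10 ends (adjusted p = 0.242).

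DHRS3 encodes the reductase that works against RDH10 and is a known retinoic acid target. Its brightest probe set read 10.79, 10.74 and 10.71 under shControl and 10.67, 10.57 and 10.64 under shTIGD1. All shTIGD1 values were the lower ones, with a log2 difference of -0.12 (0.09 and 0.21 on the control levellings), an SE of 0.04 and a 95% interval from -0.22 to -0.02, but the gene did not pass after adjustment (limma adjusted p = 0.0924). The remaining probe sets differed by 0.05 and -0.24, so the 3 did not share a direction (adjusted p = 0.429 and 0.0697).

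CRABP2, the carrier that delivers retinoic acid to its receptors, was dim. Its brightest probe set read 5.30, 5.45 and 5.40 under shControl and 5.34, 5.51 and 5.62 under shTIGD1, with overlapping groups (log2 difference 0.11, 95% interval from -0.08 to 0.30, limma adjusted p = 0.388). The other 2 probe sets, with group means under 5, differed by -0.17 and -0.13 and did not pass either (adjusted p = 0.0738 and 0.248). No direction is given for CRABP2.

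**Figure D2:**
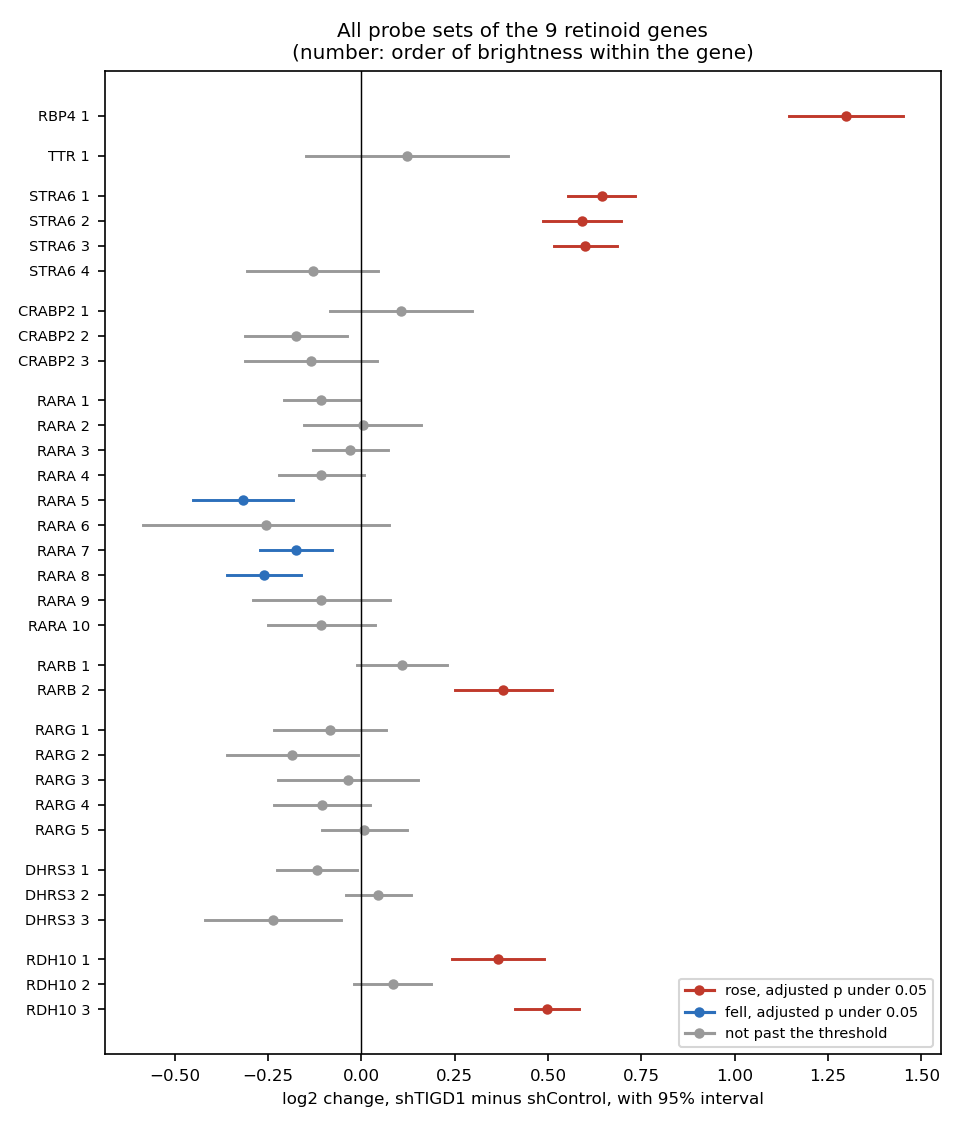
Log2 change of all 32 probe sets of the 9 genes, shTIGD1 minus shControl, with the 95% interval from limma; the number after a gene is the order of brightness of its probe sets. The 7 that rose belong to RBP4, STRA6, RDH10 and RARB, and the 3 that fell belong to RARA.

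Among the retinoic acid receptors, RARB, the receptor gene that retinoic acid induces, had 2 probe sets. Both had groups that did not overlap. The brighter read 7.48, 7.60 and 7.51 under shControl and 7.61, 7.60 and 7.70 under shTIGD1, a log2 difference of 0.11 with a 95% interval from -0.01 to 0.23 (limma adjusted p = 0.156). The dimmer read 6.33, 6.34 and 6.23 against 6.75, 6.61 and 6.68, and rose by 0.38 on the log2 scale with an SE of 0.05 (limma over all probe sets, adjusted p = 0.00471). Its interval, from 0.25 to 0.51, did not overlap that of the brighter one. The mean of both gave 0.24 (adjusted p = 0.00693). The call for RARB therefore depended on the probe set taken.

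RARA, the receptor of widest expression, was represented by 10 probe sets. The brightest read 8.57, 8.49 and 8.49 under shControl and 8.39, 8.40 and 8.43 under shTIGD1. These did not overlap, and the log2 difference, -0.11 with an SE of 0.04, turned to 0.10 and 0.23 on the control levellings (95% interval from -0.20 to -0.01, limma adjusted p = 0.0947). Of the 10, 9 had a difference below 0, from -0.32 to -0.03, and the other stood at 0.00. The 5th, 7th and 8th in brightness fell, by 0.32, 0.17 and 0.26 on the log2 scale (limma over all probe sets, adjusted p = 0.00963, 0.0252 and 0.00667). On hybridization controls these 3 stood at -0.11, 0.03 and -0.05 and on poly-A controls at 0.02, 0.16 and 0.07, with no call as lower on either. The fall of the 7th also ended when any array other than shControl replicate 2 was left out, with the replicate number as a block and with trend and robust settings (adjusted p between 0.0565 and 0.0951). Probe sets of 1 gene share their transcripts and are not replicates. In all, 3 of the 32 probe sets fell and 7 rose, where 10.6% and 11.5% of all probe sets did (22.0% either way), and the groups did not overlap for 17 of the 32 and for 40.9% of all.

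RARG had 5 probe sets, and 0 passed limma's test, with 1 lower at an unadjusted p under 0.05. The brightest read 7.85, 7.64 and 7.78 under shControl and 7.71, 7.61 and 7.70 under shTIGD1, and these overlapped (log2 difference -0.08, but 0.12 and 0.25 on the control levellings, 95% interval from -0.23 to 0.06, limma adjusted p = 0.379). Over the 5, differences ran from -0.18 to 0.01.

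The promoters of RARB and CYP26A1 are shown because both genes are known direct targets of retinoic acid receptors and their windows matched a receptor motif. The search used half-sites GGTCA and GTTCA in the same orientation with 6 bases between them, as the 4 motifs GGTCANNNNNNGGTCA, GGTCANNNNNNGTTCA, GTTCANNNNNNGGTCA and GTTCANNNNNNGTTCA, each on both strands. The 6 bases are counted between the half-sites as printed, so a longer half-site would leave fewer bases between. No 2 of the 4 motifs can match at the same place and strand. Of 35116 windows, 61 (0.174%) held at least 1, and 20 of these (0.057%) held the last. Among the 20 windows held for 7 of the 9 genes, only 1 of the 4 RARB windows matched. Among the 57 windows found for 40 of 54 other retinoid genes, only 1 of CYP26A1 did. Other spacings and bases outside the windows were not searched. Capitals mark the match, which for CYP26A1 lies on the opposite strand. The RARB line gives the 250 bases before the start (chr3:25428013-25428262, plus strand), with the match 52 to 37 bases before it. The CYP26A1 line gives 116 bases (chr10:93073753-93073868, plus strand), with the match 90 to 75 bases before the start.
RARB: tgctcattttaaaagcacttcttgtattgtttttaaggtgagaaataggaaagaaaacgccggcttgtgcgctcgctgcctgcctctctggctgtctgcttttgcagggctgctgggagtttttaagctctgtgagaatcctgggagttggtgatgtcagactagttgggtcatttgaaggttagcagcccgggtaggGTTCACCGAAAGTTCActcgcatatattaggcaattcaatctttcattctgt
CYP26A1: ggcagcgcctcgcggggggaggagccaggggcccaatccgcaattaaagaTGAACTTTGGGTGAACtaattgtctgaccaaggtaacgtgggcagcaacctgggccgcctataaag

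RARB and CYP26A1 both missed the threshold on their brightest probe sets, and both passed as higher on the control levellings. CYP26A1 read 4.39, 4.74 and 4.50 under shControl and 4.68, 4.66 and 4.72 under shTIGD1, all near background and overlapping (log2 difference 0.15, 95% interval from -0.06 to 0.35, limma adjusted p = 0.281). Without shControl replicate 2 it passed, at 0.24 (adjusted p = 0.0303), and without shControl replicate 1 it stood at 0.068. A match is a description of letters, and binding was not measured. The RefSeq tables do not say which start a probe set reports.

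The rest of the pathway was given by 54 genes in 7 role lists, of which 48 were measured. Of these, 3 rose and 4 fell (6.25% and 8.33%, where 9.79% and 14.0% of all genes did), and their median log2 change was -0.01 beside -0.04 over all genes. The genes listed as retinoic acid targets went both ways. STRA6, which rose, and RARB, DHRS3 and CYP26A1, which did not pass on their brightest probe sets, were counted elsewhere. CD38, an enzyme of the cell surface that retinoic acid induces in myeloid cells, rose from 7.36 ± 0.08 to 7.84 ± 0.09 (SD, n = 3 each; log2 change 0.48, SE 0.06, limma adjusted p = 0.00345). RARRES1, a retinoic acid responsive gene, rose from 9.82 ± 0.01 to 10.14 ± 0.01, a log2 change of 0.32 (limma adjusted p = 0.00144), on both of its probe sets. GPRC5A, a retinoic acid induced orphan receptor of lung epithelium, fell from 11.01 ± 0.02 to 10.64 ± 0.04, a log2 change of -0.37 (limma adjusted p = 0.00141), also on both, and lost the call on poly-A controls (-0.04, adjusted p = 0.522). TGM2, the tissue transglutaminase gene and a classical target, read 11.20, 11.23 and 11.25 against 11.17, 11.21 and 11.18, and did not pass (log2 difference -0.04, adjusted p = 0.422). The target list thus had 2 rises and 1 fall among 8 measured, with a median of 0.00.

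Among enzymes, none of the retinaldehyde dehydrogenases that make retinoic acid passed limma's test (0 of 3, and 1 higher at an unadjusted p under 0.05). ALDH1A1, which was very bright, read 14.03, 14.05 and 14.07 against 14.10, 14.16 and 14.13, a log2 difference of 0.08 with separate groups (limma adjusted p = 0.132). ALDH1A2 had the largest difference of the list, -0.13, near background (limma adjusted p = 0.442). The CYP26 enzymes of degradation had 0 of 3 past limma's test, also without adjustment, with CYP26B1 at 7.33 ± 0.03 and 7.29 ± 0.06 (SD, n = 3 each). Of 16 other oxidoreductases of retinol and retinaldehyde, 0 rose, and 2 fell, with 2 higher and 3 lower at an unadjusted p under 0.05. The third of those lower was RDH8, at -0.21 with separate groups near background (limma adjusted p = 0.0515). The falls were those of DHRS9, by 0.26 on the log2 scale (limma adjusted p = 0.0486), and RDH13, by 0.20 (limma adjusted p = 0.0215). DHRS9, with 1 probe set, did not pass in the fit over all probe sets. Both calls ended on hybridization controls, where the differences became -0.05 and 0.01, and without shControl replicate 1 or 2 or shTIGD1 replicate 1 or 2 (adjusted p between 0.0516 and 0.133). Leaving out shControl replicate 3 ended that of DHRS9 too (adjusted p = 0.0545), as did repeated quantile normalization (limma adjusted p = 0.0561). RDH13 lost its call with its second brightest probe set (adjusted p = 0.142). On poly-A controls RDH13 passed as higher, at 0.13 (limma adjusted p = 0.0481), where 13965 of 18265 genes did. With the replicate number as a block DHRS9 and RDH13 stood at adjusted p = 0.105 and 0.0697. AKR1B10, a reductase of retinaldehyde, read 13.97, 13.95 and 13.93 against 14.03, 14.06 and 14.04, with separate groups and a log2 difference of 0.10 (limma adjusted p = 0.0752).

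In uptake and storage, 1 of 8 genes fell and 0 rose, which held at an unadjusted p under 0.05 as well. SCARB1, a lipoprotein receptor that also takes up carotenoids, read 10.00, 10.04 and 10.03 under shControl and 9.74, 9.79 and 9.76 under shTIGD1 (log2 change -0.26, SE 0.03, limma adjusted p = 0.00365). It fell on 2 of its 3 probe sets, and the call ended on the control levellings (-0.05 and 0.07). BCO1, which cleaves beta-carotene to retinaldehyde, rose on 2 of its 3 probe sets, though not on the brightest (log2 difference 0.10, limma adjusted p = 0.297). LRAT, the enzyme that esterifies retinol for storage, had group means of 4.69 and 4.97 and did not pass (log2 difference 0.28, limma adjusted p = 0.300). Of the 5 other binding proteins measured, 0 passed limma's test, with 2 lower at an unadjusted p under 0.05; RBP7, a cellular retinol binding protein, had the largest difference, -0.19, near background (adjusted p = 0.0753, but 0.0458 without shControl replicate 1).

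Among receptor partners and coregulators, NCOA2, a coactivator of nuclear receptors, rose on its brightest probe set from 5.25 ± 0.11 to 5.66 ± 0.07 (SD, n = 3 each; log2 change 0.41, limma adjusted p = 0.00716). Of its 3 probe sets 1 rose and 1 fell, and their mean gave 0.09 (adjusted p = 0.289), so no direction is given for NCOA2. RXRA, the partner receptor of the RARs, read 9.20, 9.24 and 9.27 against 9.33, 9.24 and 9.31, with overlapping groups (limma adjusted p = 0.371).

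**Figure D3:**
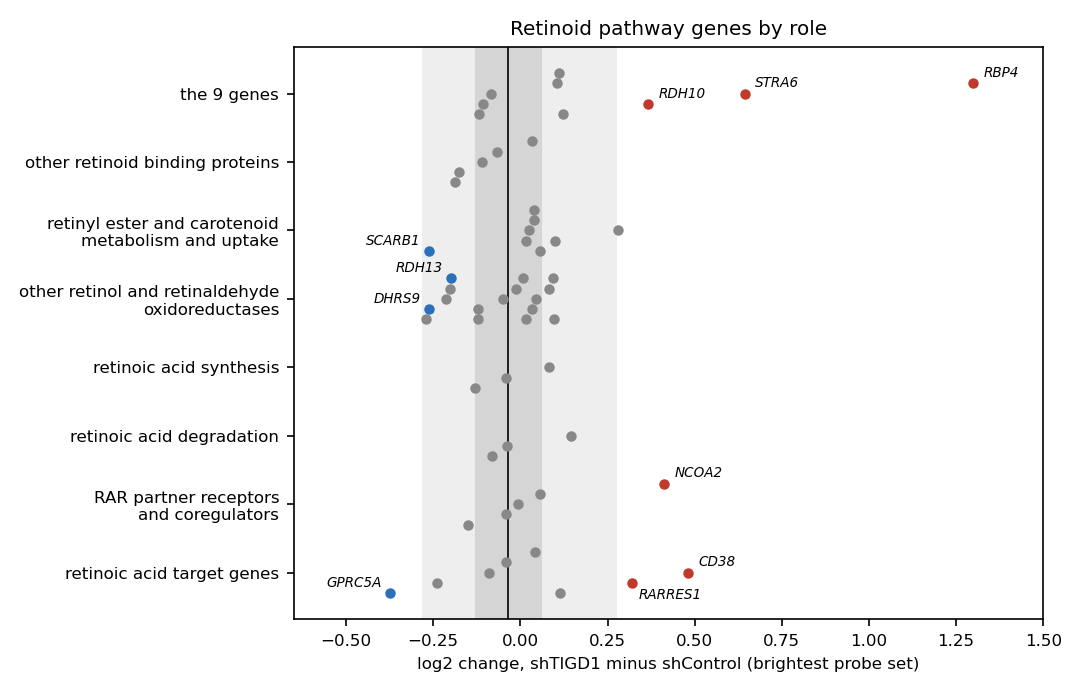
Log2 change of the brightest probe set of each measured retinoid gene, shTIGD1 minus shControl, by role; red points rose, blue points fell and grey points did not pass. The line marks the median of all 18265 genes (-0.04), and the shaded bands hold the middle 50% and 90% of them; RBP4, STRA6 and RDH10 lie to the right of both.

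The genes around RBP4, STRA6 and RDH10 on their chromosomes did not share their calls. Of the 2 nearest measured protein-coding genes on each side, 12 in all by RefSeq order, 0 passed limma's test, where 23.8% of all genes did. An unadjusted p under 0.05 was found for 2 of the 12, where 2638 of 18265 genes had it as higher and 4096 as lower. The 12 log2 differences ran from -0.20 to 0.18. Several neighbours were dim. Around STRA6, ISLR2, ISLR, CCDC33 and CYP11A1 read 5.54, 5.28, 4.57 and 3.47 in shControl, and SBSPON next to RDH10 read 4.21. Next to RBP4, PDE6C stood at -0.09 (limma adjusted p = 0.582) and FFAR4 at 0.18 (limma adjusted p = 0.131), both with a group near background. ELOC and RPL7, bright neighbours of RDH10, stood at -0.03 and 0.06 (limma adjusted p = 0.575 and 0.417).

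Across the 6 arrays, STRA6 and RDH10 had Pearson correlations with RBP4 of 0.996 and 0.959, while TTR had 0.357. The 5 genes with the highest correlation among 10901 genes whose higher group mean reached 6 (log2) were GOLT1A, AP1M2, GLRX, FRMD3 and RCHY1, each at 0.999. All 5 rose, from 0.38 for the glutaredoxin gene GLRX to 0.89 for the ubiquitin ligase gene RCHY1 on the log2 scale. AP1M2, a sorting adaptor subunit of epithelial cells, rose by 0.50. With 3 arrays in each of 2 groups, such values are set mainly by the step between the groups, and they are given as a description. The epithelial markers EPCAM and CDH1 rose as well, by 0.87 and 0.66, and were 2 of 11 epithelial and lung markers past the test, with 0 lower and 1 lower at an unadjusted p under 0.05. The summed linear signal of these 11 ran from 33293 to 33935 under shControl and from 33778 to 34042 under shTIGD1, but KRT8 and KRT18 held 87.7% to 90.8% of it. The other 9 summed to between 3081 and 3171 under shControl and between 3897 and 4158 under shTIGD1, without overlap. That sum includes EPCAM and the bright CDH1, which read 10.23 in shControl and 10.89 in shTIGD1. The lung markers NKX2-1, SFTPA1, SFTPB, SFTPC, SFTPD and NAPSA had log2 differences from -0.22 to -0.0026, and none passed. Of the 11 markers, 3 had a difference above 0, and the median was -0.03. The part of these markers in the rises of RBP4, STRA6 and RDH10 was not tested.

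**Figure D4:**
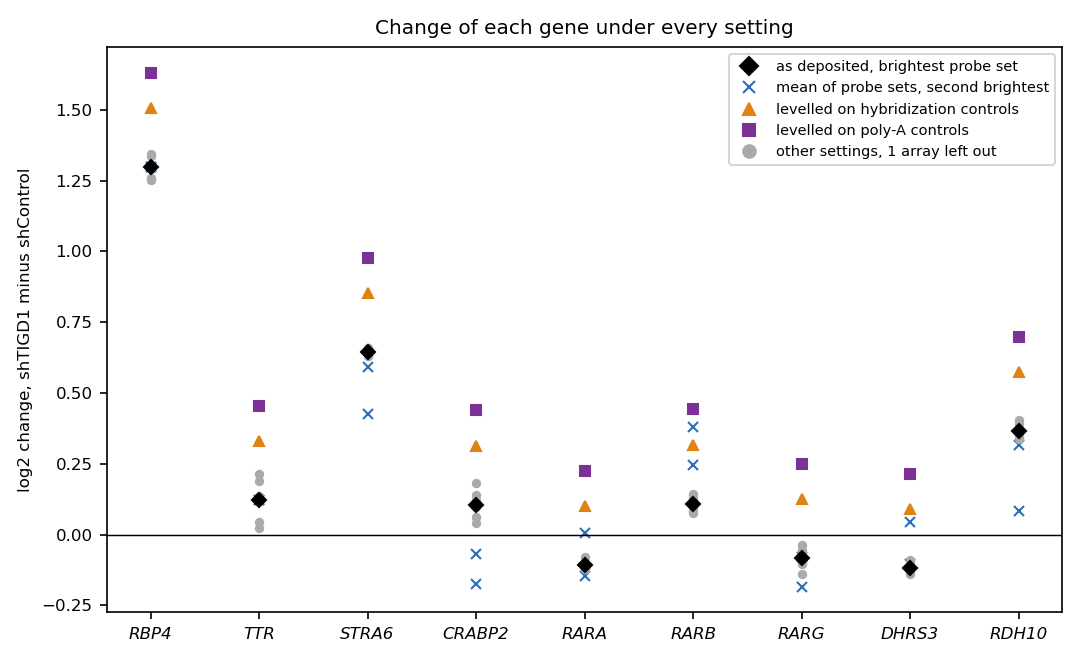
Log2 change of each of the 9 genes, shTIGD1 minus shControl, under every setting tried. RBP4 and STRA6 stay above 0.40 in all of them and RDH10 above 0, while levelling on spiked controls moves RARA, RARG and DHRS3 from below 0 to above it.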

How the data were processed

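Labelled RNA made from total RNA of the A549 cells was hybridised to 1-colour Affymetrix arrays, as the labels' protocols describe. The authors deposited log2 signals per probe set, for which the submitters' processing notes name GCOS and RMA. The sources used here give no versions, and base 2 was inferred from the value range. RMA makes array distributions alike, so a shift common to most genes is removed before deposit. Scan dates were not used here.

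Of 49395 probe sets, 102 controls were left out. The platform annotation gave 1 symbol to 45336, several to 1275 and none to 2682. Each gene was represented by its brightest probe set. Groups of 3 arrays were fitted in R 4.3.3 with limma 3.58.1 (lmFit, then eBayes), for 18265 genes and for 49293 probe sets. Intervals are at 95% and without adjustment. No pair of arrays shared more than 184 equal values. The 9 genes and the lists were chosen with earlier results of these data known. Genes named are all 9, the 5 most like RBP4, TIGD1 and markers. Of each role list they are up to 4 past the threshold with the largest change, or else the largest difference. RXRA, TGM2, LRAT, ALDH1A1, CYP26B1, AKR1B10, BCO1, RDH8 and the neighbours of RBP4, STRA6 and RDH10 were named after their values were seen. Of 54 listed pathway genes 48 were measured, and the others were not analysed here. Tested on simulated data for shTIGD1 against shControl (18265 genes), the fit recovered 44% of 50 genes changed 1.2-fold, 84% at 1.5-fold and 100% at 2-fold and at 3-fold, and 9 of 173 calls were false. The real comparison called 4345 genes, far more than the simulated one, so these rates need not hold for it. Alternatives were the mean and the second brightest probe set, repeated quantile normalization, levelling on 14 hybridization or 24 poly-A control probe sets, a filter at a log2 signal of 5, eBayes with trend and robust, the replicate block and leaving out each array.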

Additional observations from a re-analysis of the deposited data

How the results depend on the processing

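RBP4 and STRA6 passed as higher under every alternative tried, and RDH10 under all but the second brightest probe set (0.08). For RBP4, with 1 probe set, the mean and the second brightest probe set reuse the same values. Both control levellings raise every change, so they are no check on a rise, and the loss of a small fall follows from the same constant. Genes called lower among all 18265 were 2556 as deposited, 361 on hybridization controls and 119 on poly-A controls. On hybridization controls 5 genes, 15 probe sets and 25 pathway genes were called higher and 0 probe sets and 1 pathway gene lower, among 9099 genes called in all; on poly-A controls these were 9, 23 and 36 higher and 0 and 0 lower, among 14084. Each levelling shifts an array by a constant. Falls among the 9 genes were 1 with the mean of all probe sets (RARA), 2 with a signal of at least 5 (RARA and DHRS3) and 1 with trend and robust settings (DHRS3), where 5 pathway genes rose.

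Deviations from the group means of same-numbered arrays correlated at -0.03, -0.13 and -0.09. Because each group mean rests on only 3 arrays, these values cannot settle whether the replicate numbers paired the arrays. With the replicate block, 2388 genes were called and 2 pathway genes fell, and the calls for RBP4, STRA6 and RDH10 held. Leaving out 1 array gave 2742 to 3389 genes called (the lowest without shTIGD1 replicate 1, and 2774 without replicate 3), 2 to 4 falls and 3 to 4 rises in the pathway, 7 rises and 2 to 3 falls of the 32 probe sets, and 3 rises and 0 falls of the 9 genes.

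Signs also turned. CRABP2 stood at -0.068 with the mean of its probe sets and -0.17 with the second brightest, where RARA stood at 0.0037 and DHRS3 at 0.046, and the cause was not tested. The turns on control levellings follow from the constant each adds. On hybridization controls RARA was 0.10, RARG 0.12, DHRS3 0.090, RBP7 0.021, RDH13 0.0085, ALDH1A2 0.078 and the 7th RARA probe set 0.034. On poly-A controls RARA was 0.23, RARG 0.25, DHRS3 0.21, RBP7 0.15, SCARB1 0.072, DHRS9 0.070, RDH13 0.13, ALDH1A2 0.20 and the 5th, 7th and 8th RARA probe sets 0.016, 0.16 and 0.073. Of the 22 probe sets not past the threshold, 13 and 15 turned on these levellings. The number of arrays limits precision, and the 23 antigenomic background probe sets read from 2.57 to 10.9, so that 5 is only a rough level of background.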
